A study of Mus musculus with 6 samples.

Results

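The genes described here encode plasma proteins that the liver makes for blood clotting and for complement. They are 40 genes chosen by symbol, 21 of coagulation and fibrinolysis, 15 of complement and 4 of other plasma proteins, in a study of livers from mouse offspring whose mothers ate 1 of 3 diets. A gene is represented by its brightest probe among those annotated to that symbol alone. Such a probe was found for 37 of the 40 genes, 19 of coagulation, 14 of complement and 4 others, among 19938 genes with a probe of this kind. All 37 passed the minimum mean log2 signal of 5, as 10977 genes did. The prekallikrein gene Klkb1, which shares its probe with another gene, and Cpb2 and C3 were not analysed here.

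All samples are whole liver of C57Bl6/J mice, taken within 1 day of birth per the labels, measured on 6 Affymetrix arrays. The dams were fed diets of equal energy with 6 g% of oil, which was soybean oil in the Control group, flaxseed oil in the ALA group and coconut oil in the SFA group. The mice were 4 to 5 weeks old at the start, and the males ate chow except while mating. Alpha-linolenic acid made up 31.6% in the ALA diet and saturated fatty acids 48.51% in the SFA diet, per the labels. Each group has 2 arrays, each of RNA pooled from 3 livers. Nothing in the labels ties the duplicates to separate litters or mothers. The p-values therefore rest on the spread between duplicate pools alone, and part of that spread may be technical.

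Coagulation factors are mostly inactive proteases that hepatocytes release into plasma, where each activates the next until thrombin turns fibrinogen into fibrin. Antithrombin, heparin cofactor II and protein C hold this cascade back, and plasmin dissolves the clot. Complement works in a similar way: the classical, lectin and alternative routes converge on the cleavage of C3, after which C5, C6, C7, C8 and C9 assemble into a pore in the target membrane. Hepatocytes are the main source of most of these proteins, whereas C1q and properdin come largely from myeloid cells.

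Coagulation genes differed little between the diets, and the widest gaps between duplicates of any complement gene lay between the control arrays. Between ALA and Control 0 of 37 members passed the test beside 7.93% of all tested genes, and between ALA and SFA 0 of 37 passed beside 1.53%. C4bp, the gene of the chain of C4b-binding protein that binds C4b, was the 1 member of 37 that passed between SFA and Control, where it was lower, beside 13.8% of all tested genes. Calls higher and lower made up 5.11% and 2.82% of tested genes between ALA and Control, 6.62% and 7.15% between SFA and Control and 1.09% and 0.437% between ALA and SFA. The genes of the membrane attack complex C6, C8a, C8b and C9 were between 3.74-fold and 15.35-fold higher on control replicate 2 than on control replicate 1. The SFA arrays were lower than both control arrays for 19 of the 37 members, against 35.7% of all tested genes.

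Among the facts that touch every comparison, the arrays differed in sex-linked signal. The log2 signal of Xist, the RNA of the inactive X chromosome, read 10.67 on control replicate 1 and 8.34 on control replicate 2, against 3.76 and 4.24 for ALA and 9.46 and 9.51 for SFA. The Y-linked gene Eif2s3y was at 3.63 and 7.95 on the control arrays, at 7.74 and 7.80 on the ALA arrays and at 4.11 and 3.79 on the SFA arrays. Diet and sex-linked signal cannot be told apart between ALA and SFA, and control replicate 2 alone carries clear signal of both genes. Fetal liver and cell cycle genes also set Control apart. The mean log2 signal of 9 tested fetal liver genes was 5.15 and 5.10 on the control arrays. It was 6.52 and 7.01 on ALA and 7.09 and 7.14 on SFA. For 15 tested cell cycle genes it was 5.29 and 5.22 on the control arrays. It was 6.13 and 7.21 on ALA and 7.47 and 7.37 on SFA. The part of developmental stage in the comparisons with Control was not tested. Hepatocyte markers were high on every array, with a mean log2 signal of 6 tested markers between 11.80 and 11.95. Of these, 5 were lower on both SFA arrays than on both control arrays, against 35.7% of all tested genes. Their median change between SFA and Control was -0.12 over the 6. All 6 were higher on both ALA arrays than on both SFA arrays, against 31.4% of all tested genes. Over the 10977 tested genes the correlation between duplicates was 0.977 in Control, 0.978 in ALA and 0.986 in SFA, across genes, which are not independent replicates. Over the 37 members the same correlations were 0.813, 0.983 and 0.999.

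The terminal pathway varied most. C6, whose protein joins C5b to start the pore, read 6.31 on control replicate 1 and 10.25 on control replicate 2 in log2 signal, against 7.84 and 7.15 for ALA and 6.92 and 7.0 for SFA. The control arrays therefore held both the lowest and the highest value, and all 4 arrays of the other diets lay between them. C9, whose protein forms most of the ring of the pore, was at 9.01 and 10.999 on the control arrays, at 9.32 and 8.08 on ALA and at 8.47 and 8.58 on SFA. Control replicate 2 was again the highest array, and both SFA arrays lay below both control arrays.

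C8 is built from the products of C8a, C8b and C8g, and these did not move alike. C8a was at 9.27 and 11.36 on the control arrays, at 10.07 and 9.64 on ALA and at 9.38 and 9.44 on SFA. C8b was at 9.26 and 11.17 on the control arrays, at 10.79 and 10.23 on ALA and at 10.58 and 10.46 on SFA. For both genes the control arrays again enclosed all the others. C8g, whose product is a lipocalin bound to the alpha chain, was at 10.65 and 10.61 on the control arrays, at 10.79 and 10.25 on ALA and at 10.76 and 10.69 on SFA, so that the control arrays agreed to within 0.05. Hc, the gene of C5, was at 10.83 and 11.47 on the control arrays, at 11.06 and 10.79 on ALA and at 10.70 and 10.69 on SFA.

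**Figure D1:**
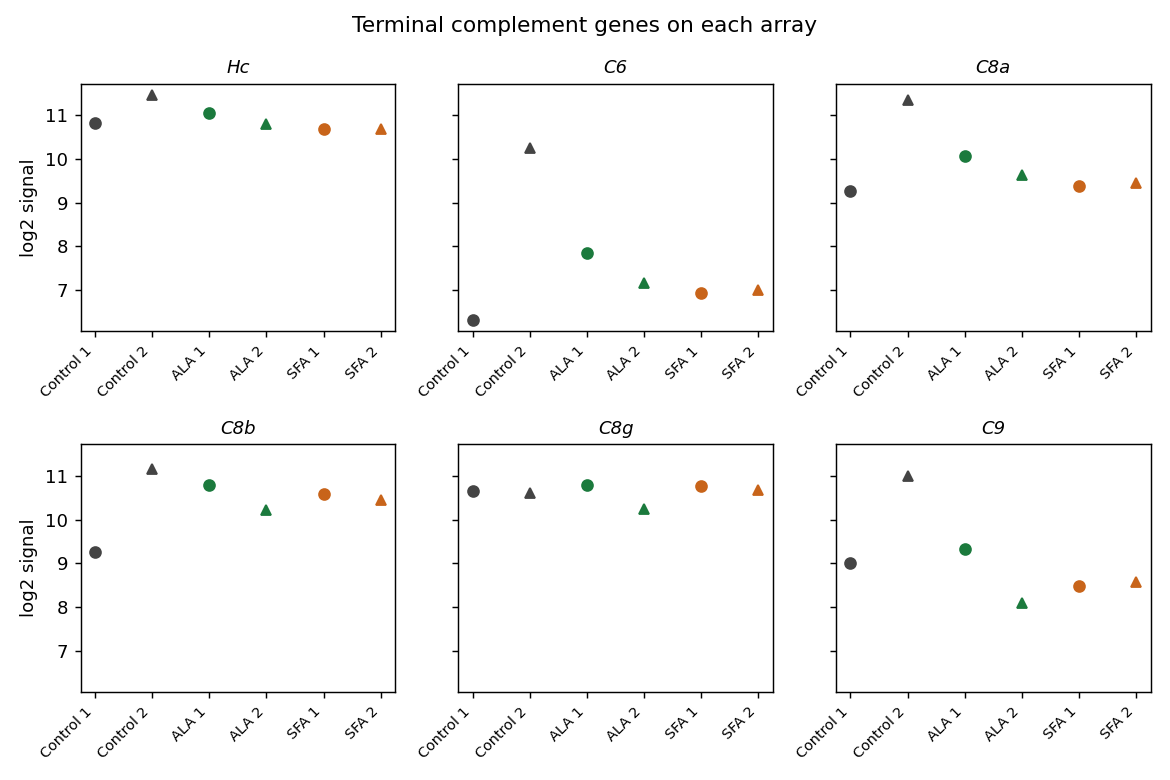
Log2 signal (y axis, the same scale in all panels) of the 6 terminal complement genes on each array (x axis); circles are replicate 1 and triangles replicate 2, in grey for Control, green for ALA and orange for SFA. Control replicate 2 stands above the other 5 arrays for Hc, C6, C8a, C8b and C9, while C8g has no such array.

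Set against all genes, the gap between the control arrays was wide for these 4 genes. A difference of more than 1 on the log2 scale between the control duplicates was found for 142 of 10977 genes (1.29%), for 4 of the 14 complement genes and for 0 of the 19 coagulation genes. In order of excess on control replicate 2, C6 stood at rank 4 of all tested genes with a difference of 3.94, C8a at rank 19 with 2.10, C9 at rank 22 with 1.99 and C8b at rank 24 with 1.90. For these 4 genes the duplicates of the other diets were closer. Over all tested genes the median gap between duplicates was 0.15 in Control, 0.17 in ALA and 0.13 in SFA. Between the ALA arrays C9 differed by 1.24, the widest gap of any member, with replicate 1 higher, and between the SFA arrays no member differed by more than 0.16.

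**Figure D2:**
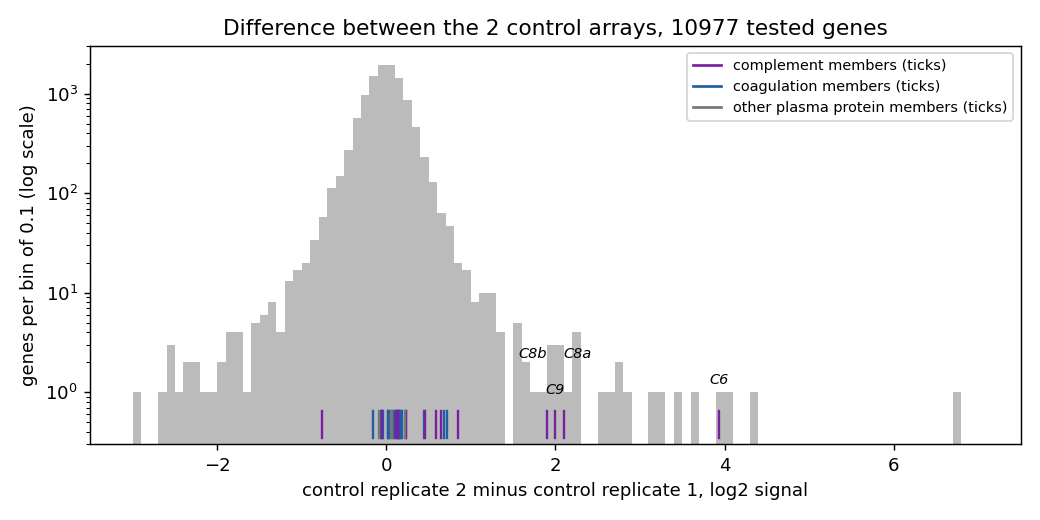
Histogram of the difference in log2 signal between control replicate 2 and control replicate 1 (x axis) for all 10977 tested genes, with the number of genes per bin on a log axis (y axis); the ticks at the bottom mark the members. C8b, C9 and C8a lie near 2 and C6 near 4, while every coagulation tick lies within 0.72 of 0.

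Genes with a similar excess on control replicate 2, named after their values were seen, include Hsd3b5, a hydroxysteroid dehydrogenase gene known for its expression in adult male mouse liver, which was at 4.13 and 10.84 on the control arrays and between 4.14 and 4.87 on the other 4. Elovl3, a fatty acid elongase gene, was at 6.02 and 10.12 on the control arrays and between 3.52 and 4.50 on the others. The cytochrome P450 gene Cyp2d9 was at 7.69 and 10.56 on the control arrays and between 8.93 and 9.35 on the others. Control replicate 2 was the highest array for these 3 genes. For Elovl3 control replicate 1 also lay above every ALA and SFA array. The same held for Cyp7b1, at 8.35 and 10.98 on the control arrays and between 5.39 and 5.68 on the others. Control replicate 2 was not the highest for acute phase genes with a similar excess over control replicate 1. Saa2, at rank 8, was at 5.98 and 9.17 on the control arrays, at 10.41 and 8.45 on ALA and at 5.60 and 5.67 on SFA. Orm2, at rank 10, was at 7.98 and 10.77 on the control arrays, at 11.79 and 10.97 on ALA and at 7.24 and 6.69 on SFA. Lcn2 and Saa1, at ranks 16 and 18, were also higher on both ALA arrays than on control replicate 2. Eif2s3y was as high on the ALA arrays as on control replicate 2. C6, C8a, C8b and C9 were lower on the ALA arrays than on control replicate 2. Both ALA arrays were above both SFA arrays for C6 and C8a, and not for C8b and C9. The part that sex makeup or stage of the livers has in the terminal complement values was not tested.

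The diet differences of these genes came with wide intervals. C6 was at -1.32 between SFA and Control (SE 1.07, 95% interval from -3.85 to 1.21, adjusted p = 0.436, n = 2 arrays per group) and at -0.78 between ALA and Control (SE 1.07). C9 was at -1.48 between SFA and Control (SE 0.64, adjusted p = 0.161) and at -1.31 between ALA and Control (adjusted p = 0.260). For C6, C8a and C8b the direction depended on which control array was kept, while C9 stayed negative with either. Against control replicate 2 alone, with its spread assumed to be that of the other diets, C6 was at -2.75 on ALA (adjusted p = 0.0115) and at -3.29 on SFA (adjusted p = 0.00578). Under the same setting C8a was at -1.51 and -1.95 (adjusted p = 0.0214 and 0.0108), and C9 at -2.47 on SFA (adjusted p = 0.0396), while C8b was at -0.65 and -0.64 and did not pass (adjusted p = 0.234 and 0.183). That setting called 2 members on ALA, both lower, beside 4.33% of all genes called and 1.25% called lower, and 4 members on SFA, all lower, beside 6.70% and 2.69%. Against control replicate 1 alone, C6 was at 1.19 on ALA and 0.65 on SFA, C8a at 0.59 and 0.14 and C8b at 1.25 and 1.26, none of which passed (adjusted p from 0.0605 to 0.725). That setting called 0 of 37 members, beside 2.43% of all genes on ALA, with 0.957% lower, and 3.34% on SFA, with 1.50% lower. Control replicate 1 and both SFA arrays share a high Xist and a low Eif2s3y signal, and in that pairing C9 was at -0.48 (adjusted p = 0.579).

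The upstream sequences of the 4 members with the widest gaps between the control arrays are shown, with that of C4bp. C4bp was the only member called in the fit to all 6 arrays. The sequences are 300 bases each from RefSeq on the mouse build GRCm38.p6, written 5′ to 3′ along the gene. They cover 250 bases before and 50 after the annotated start. Capitals mark matches on either strand to 3 short motifs of liver transcription factors: TTGCNNAA of C/EBP, TTCNNNGAA of STAT proteins and ATTGAT of HNF6.
C6 promoter, chr15:4726960-4727259, plus strand: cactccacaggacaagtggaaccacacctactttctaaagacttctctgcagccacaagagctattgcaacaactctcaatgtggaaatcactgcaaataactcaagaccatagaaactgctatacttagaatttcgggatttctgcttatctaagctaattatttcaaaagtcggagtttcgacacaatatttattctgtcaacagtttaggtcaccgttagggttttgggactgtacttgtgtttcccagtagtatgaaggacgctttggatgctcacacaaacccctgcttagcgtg
C9 promoter, chr15:6445096-6445395, plus strand: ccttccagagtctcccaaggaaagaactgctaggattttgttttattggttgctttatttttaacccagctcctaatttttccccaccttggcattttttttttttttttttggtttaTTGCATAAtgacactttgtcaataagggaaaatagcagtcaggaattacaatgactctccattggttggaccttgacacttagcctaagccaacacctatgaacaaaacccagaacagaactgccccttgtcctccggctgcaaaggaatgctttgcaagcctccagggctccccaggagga
C8a promoter, chr4:104876349-104876648, minus strand: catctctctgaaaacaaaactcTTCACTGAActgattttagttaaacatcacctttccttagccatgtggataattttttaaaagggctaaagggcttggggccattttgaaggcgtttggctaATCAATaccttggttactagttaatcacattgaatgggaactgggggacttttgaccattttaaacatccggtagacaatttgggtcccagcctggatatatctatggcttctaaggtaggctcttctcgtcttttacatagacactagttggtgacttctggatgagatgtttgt
C8b promoter, chr4:104766067-104766366, plus strand: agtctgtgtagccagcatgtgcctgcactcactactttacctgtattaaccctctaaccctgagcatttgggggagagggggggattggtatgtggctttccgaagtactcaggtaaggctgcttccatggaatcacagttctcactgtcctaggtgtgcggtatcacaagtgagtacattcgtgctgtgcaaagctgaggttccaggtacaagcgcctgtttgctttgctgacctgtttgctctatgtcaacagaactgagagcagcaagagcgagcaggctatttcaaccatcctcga
C4bp promoter, chr1:130661569-130661868, minus strand: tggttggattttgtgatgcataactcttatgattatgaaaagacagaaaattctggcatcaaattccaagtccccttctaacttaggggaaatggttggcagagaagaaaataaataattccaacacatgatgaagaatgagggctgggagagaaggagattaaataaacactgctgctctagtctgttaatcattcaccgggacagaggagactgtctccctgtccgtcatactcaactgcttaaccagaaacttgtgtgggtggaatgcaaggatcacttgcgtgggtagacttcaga

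The C8a window held a STAT match at position -228 from the annotated start and an HNF6 match at -126, and the C9 window a C/EBP match at -132. None of the 3 motifs was found in the windows of C6, C8b and C4bp, nor in either of the windows of C8g. Among 32851 promoters in the table, 10.8% held the C/EBP letters, 8.3% those of STAT and 7.54% those of HNF6. The 34 promoters listed for 33 of the 40 members held them in 11, 7 and 6 cases. A match of letters is a description and not a binding site. C8a and C8b are neighbours on chromosome 4, and C6 and C9 lie on chromosome 15 with 8 other protein-coding genes between them, whereas C8g is on chromosome 2.

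The proteins that form and restrain the C3 convertase came next. C4bp was at 10.63 and 11.08 on the control arrays, at 10.63 and 10.52 on ALA and at 10.19 and 10.17 on SFA. Both SFA arrays lay below all 4 other arrays. C4bp fell by 0.67 on the log2 scale between SFA and Control, a ratio of 0.627 (SE 0.17, 95% interval from -1.07 to -0.28, adjusted p = 0.043, n = 2). It was at -0.28 between ALA and Control (adjusted p = 0.360) and at 0.39 between ALA and SFA (adjusted p = 0.228). As 7.15% of all tested genes were called lower in this comparison, 1 of 37 members is below the background share. The C4bp call was close to the threshold, and its size depended on the control array kept. Against control replicate 1 alone the value was -0.45, and against control replicate 2 alone it was -0.90. Without either SFA array it was -0.68 and -0.66. The call was lost in the fit to the 4 arrays of the comparison alone (adjusted p = 0.06235) and after 75th percentile centring (adjusted p = 0.0655).

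The other convertase genes did not pass. C2, the protease that pairs with C4b, was at 7.73 and 8.58 on the control arrays, at 8.41 and 8.34 on ALA and at 7.93 and 7.81 on SFA. Its ALA arrays were both above its SFA arrays, by 0.50 (SE 0.26, adjusted p = 0.291), and its control arrays spanned all of them. Cfb, factor B of the alternative pathway, lay between 10.86 and 11.28 on all arrays, with both SFA arrays lowest. Cfi, the protease that cuts C3b and C4b, lay between 10.40 and 10.95.

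In the lectin pathway, the recognition proteins and their proteases differed in pattern. Mbl1, a mannose-binding lectin gene, was at 9.33 and 9.91 on the control arrays, at 9.43 and 8.96 on ALA and at 9.10 and 8.94 on SFA. Mbl2, the second such gene in mice, went the other way between the duplicates, with 9.78 and 9.02 on the control arrays, 8.82 and 9.09 on ALA and 9.10 and 9.08 on SFA. For Mbl2 control replicate 1 was the highest array and the other 5 lay between 8.82 and 9.10. Masp2, the protease that cleaves C4 and C2, was at 10.64 and 10.78 on the control arrays, at 10.83 and 10.75 on ALA and at 10.35 and 10.32 on SFA. Both SFA arrays were thus below all 4 others. The differences were 0.46 between ALA and SFA (SE 0.12, adjusted p = 0.101) and -0.38 between SFA and Control (SE 0.12, adjusted p = 0.085), and neither passed. Masp1, the other protease of the lectin pathway, lay between 9.92 and 10.20, with both control arrays lowest.

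The 19 coagulation genes spread less than the complement genes. On the brightest probe of each, none of them ranged by more than 0.72 on the log2 scale, or 1.64-fold, over all 6 arrays. For each of them the 95% interval of all 3 diet differences lay inside a change of 1 on the log2 scale in either direction, which held for 86.7% of all tested genes between ALA and Control, 83.9% between SFA and Control and 90.2% between ALA and SFA. The widest bound of these intervals was 0.72. At an unadjusted p below 0.05, coagulation genes numbered 0 between ALA and Control, 1 between SFA and Control and 0 between ALA and SFA in the limma fit, where all tested genes gave 24.7%, 31.9% and 22.4%. Of the 14 complement genes, 9, 8 and 9 had all of the interval inside a change of 1.

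**Figure D3:**
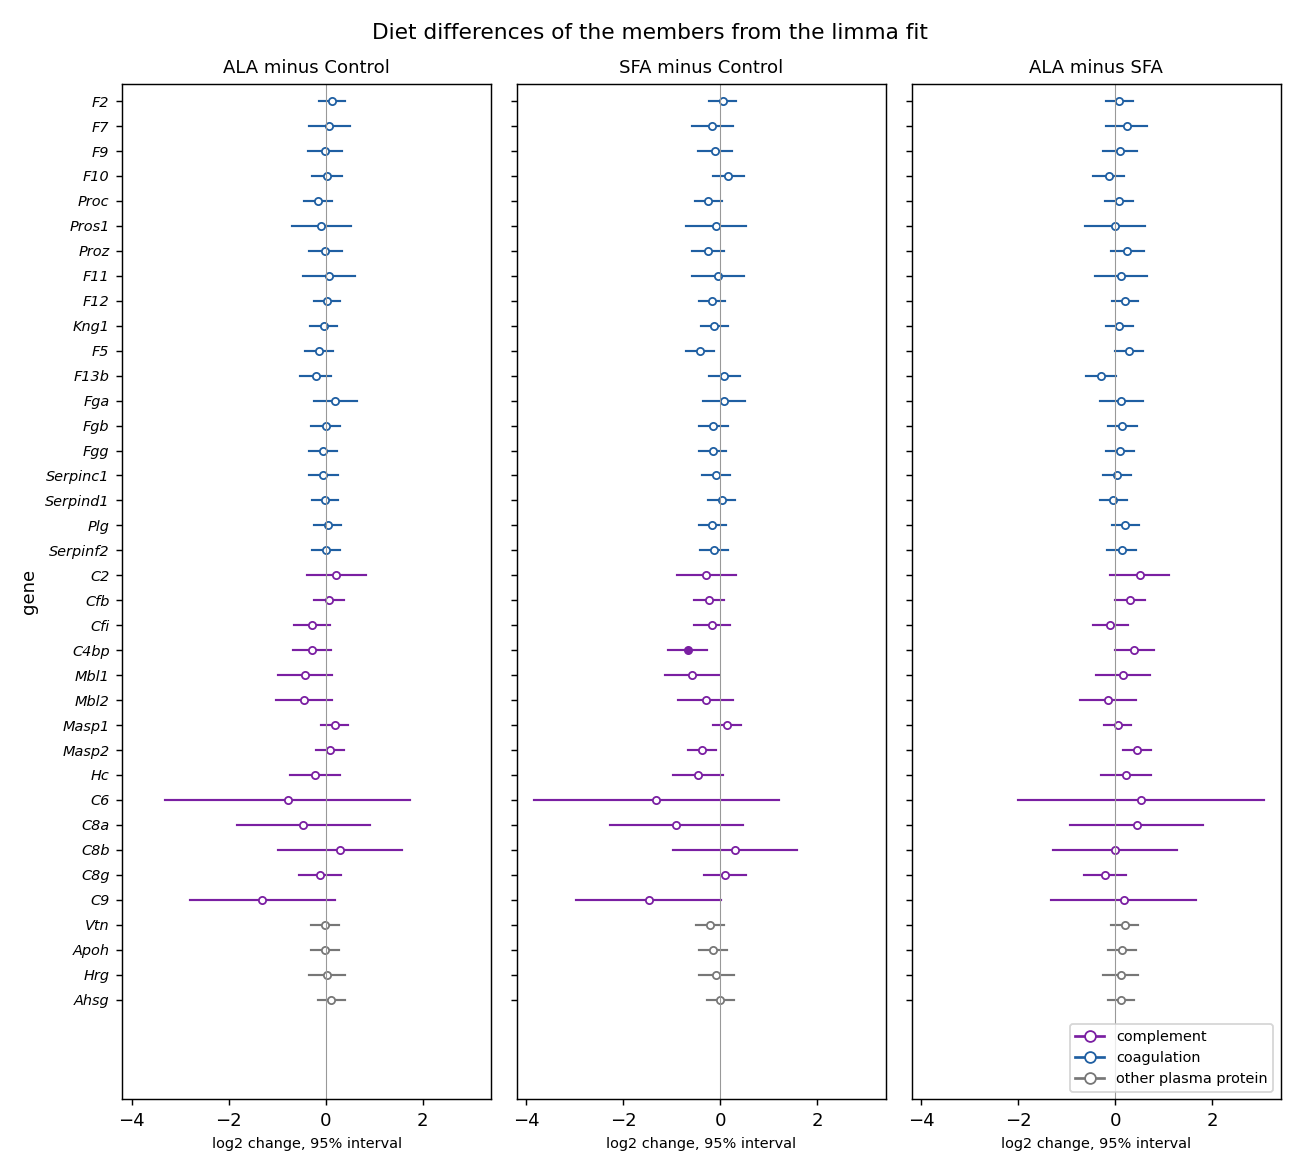
Log2 change with its 95% interval (x axis) of each of the 37 members (y axis) in the 3 diet comparisons on 1 scale, from the limma fit to all 6 arrays; purple is complement, blue coagulation and grey other plasma proteins, and a filled point marks an adjusted p below 0.05. C4bp between SFA and Control is the 1 filled point, and the intervals of C6, C8a, C8b and C9 are the widest.

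The vitamin K-dependent factors are F2, F7, F9, F10, Proc, Pros1 and Proz, which all need gamma-carboxylation to bind membranes. F2, the prothrombin gene, was at 11.48 and 11.41 on the control arrays, at 11.58 and 11.57 on ALA and at 11.46 and 11.52 on SFA, a range of 0.17. Pros1, the gene of the protein C cofactor protein S, ranged most of the 7, from 7.47 to 8.17, with control replicate 2 highest and ALA replicate 2 lowest. F7, F9 and F10, the proteases of the extrinsic pathway and the tenase and prothrombinase complexes, ranged by 0.52, 0.31 and 0.24. Proc, the gene of protein C, was at 10.25 and 10.26 on the control arrays, at 10.13 and 10.05 on ALA and at 9.96 and 10.06 on SFA. The control arrays were above all others for Proc, by 0.16 against ALA and 0.25 against SFA on average, without passing (adjusted p = 0.459 and 0.207).

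F5, the cofactor of the prothrombinase, came closest to the threshold among the coagulation genes. It was at 10.30 and 10.36 on the control arrays, at 10.27 and 10.10 on ALA and at 9.90 and 9.90 on SFA, so that the SFA arrays were the lowest. The difference between SFA and Control was -0.43 (SE 0.12, 95% interval from -0.72 to -0.14, adjusted p = 0.0634).

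Fibrinogen is made of 3 chains whose genes lie side by side. Fgb was at 12.05 and 12.22 on the control arrays, at 12.18 and 12.09 on ALA and at 12.00 and 11.98 on SFA, and Fgg ranged from 12.06 to 12.28. Fga ranged from 10.19 to 10.77, with control replicate 1 lowest. A second probe of Fga was at 8.11 and 8.52 on the control arrays, at 9.09 and 8.63 on ALA and at 8.88 and 8.94 on SFA. On that probe every array of the other diets was above both control arrays, unlike on the brightest probe. The second probe was not tested on its own. On the brightest probes no chain passed in any comparison, and the changes between SFA and Control were 0.07 for Fga, -0.14 for Fgb and -0.16 for Fgg. F13b, the carrier subunit of the factor that cross-links fibrin, ranged from 9.27 to 9.74.

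In the contact system, F11 was at 8.27 and 8.99 on the control arrays and between 8.52 and 8.74 on the other 4, so that the control arrays enclosed the others as they did for C6, C8a and C8b, at a smaller size. F12 and the kininogen gene Kng1 ranged by 0.24 and 0.14. Among the inhibitors, Serpind1, the gene of heparin cofactor II, had the narrowest range of the 37 members, from 11.10 to 11.18, and Serpinc1, the antithrombin gene, ranged by 0.18. Plg and Serpinf2, the genes of plasminogen and of its inhibitor antiplasmin, ranged by 0.26 and 0.25. Among the other plasma proteins, the vitronectin gene Vtn ranged by 0.26, Apoh, the gene of beta-2-glycoprotein I, by 0.26, the histidine-rich glycoprotein gene Hrg by 0.32 and the fetuin-A gene Ahsg by 0.15.

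**Figure D4:**
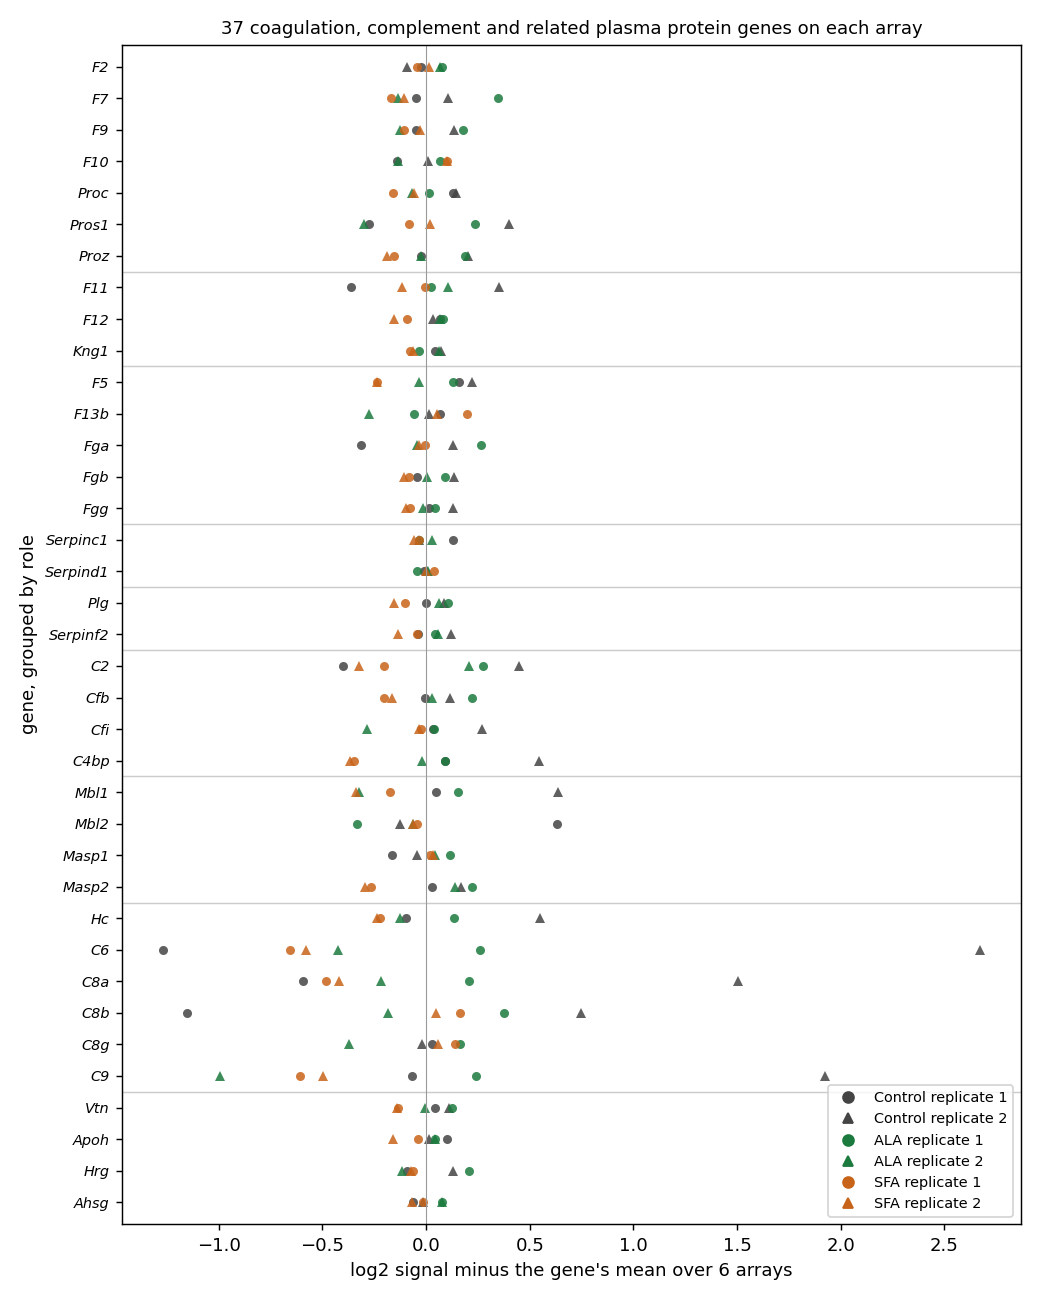
Log2 signal of each of the 37 members minus that gene's mean over the 6 arrays (x axis), with genes grouped by role (y axis) and grey lines between the roles; circles are replicate 1, triangles replicate 2, grey Control, green ALA and orange SFA. The terminal genes C6, C8a, C8b and C9 reach beyond 0.7 to the right on control replicate 2, while most coagulation genes stay within 0.4 of their mean.

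Complement set against coagulation gave different answers on the control arrays. The mean log2 signal of the 14 complement genes minus that of the 19 coagulation genes was -0.79 on control replicate 1 and -0.07 on control replicate 2. It was -0.56 and -0.77 on the ALA arrays and -0.77 and -0.78 on the SFA arrays. Control replicate 2 thus stood apart, and the other 5 arrays lay between -0.79 and -0.56. The difference of the diet means was -0.24 between ALA and Control and -0.35 between SFA and Control, beside a standard deviation between duplicates of 0.31, and 0.11 between ALA and SFA. Without control replicate 2 the first 2 values were 0.13 and 0.02, and without control replicate 1 they were -0.60 and -0.71. Leaving out ALA replicate 2 gave -0.13 between ALA and Control and 0.22 between ALA and SFA, and leaving out ALA replicate 1 gave 0.003 between ALA and SFA. The 8 complement genes outside the terminal pathway had means of 9.98 and 10.19 on the control arrays, 10.04 and 9.91 on ALA and 9.79 and 9.75 on SFA. The 6 terminal genes had means of 9.22 and 10.98 on the control arrays, 9.98 and 9.36 on ALA and 9.47 and 9.48 on SFA.

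**Figure D5:**
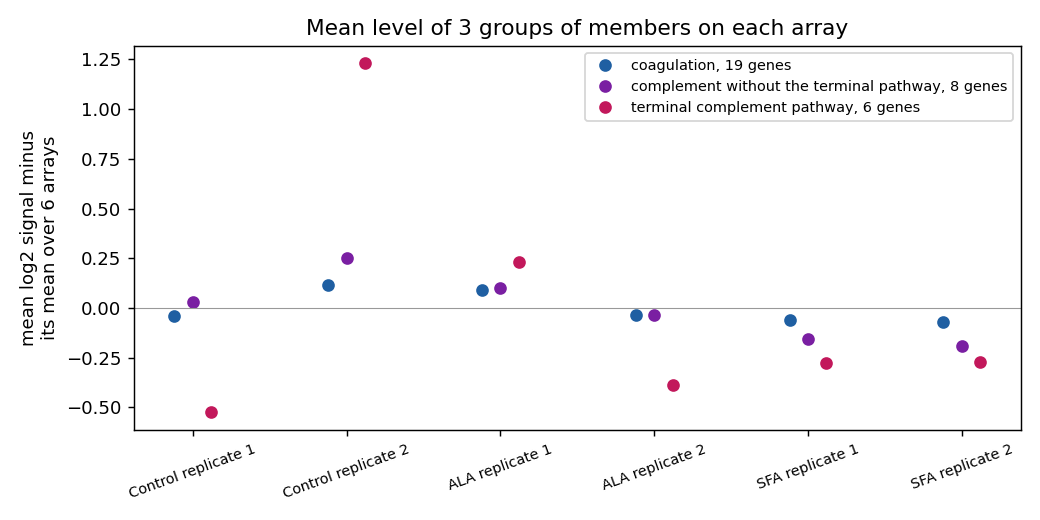
Mean log2 signal of 3 groups of members on each array (x axis), minus the group's mean over the 6 arrays (y axis): 19 coagulation genes in blue, the 8 complement genes outside the terminal pathway in purple and the 6 terminal genes in red. The terminal group is highest on control replicate 2 and lowest on control replicate 1, and both SFA arrays are below 0 for all 3 groups.

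Livers of SFA offspring had lower signal than both control arrays for much of the group, mostly by small amounts. Both SFA arrays were below both control arrays for 19 of 37 members, against 35.7% of all tested genes, and above them for 3, against 28.6%. The widest differences among the 19 were those of C9 at -1.48, C4bp at -0.67, Mbl1 at -0.60, Hc at -0.46, F5 at -0.43 and Masp2 at -0.38. The other 13 lay between -0.26 for Proz and -0.13 for Kng1, and they are Proz, Proc, Cfb, Vtn, Cfi, F12, Plg, F7, Fgg, Apoh, Fgb, Serpinf2 and Kng1. The 3 are F10, Masp1 and C8g. The median change of the 37 members was -0.16 and that of all tested genes -0.05. The gap between these medians was -0.11 as deposited, -0.19 after quantile normalization and -0.23 after cyclic loess. Median or 75th percentile centring cannot change this gap, as each shifts all genes of an array alike. After 75th percentile centring the count of members below Control on both SFA arrays was 12, against 26.1% of all genes. That count was 19 after median centring (33.9%), 18 after quantile normalization (27.2%) and 23 after cyclic loess (28.8%). Without control replicate 2 the median was -0.06 and without control replicate 1 it was -0.23. In bulk liver, fewer hepatocytes and less RNA per hepatocyte cannot be told apart. The parts of sex-linked signal and developmental stage in this shift were not tested either.

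Between ALA and Control the median of the 37 members hardly moved, while complement genes were spread more widely than coagulation genes. Both ALA arrays were above both control arrays for 4 members, F2, F12, Masp1 and Ahsg, and below for 3, Proc, F5 and F13b, against 27.0% and 28.0% of all tested genes. The median change was -0.01 for the members and -0.01 for all genes. In the limma fit 0 of 37 members were called or had an unadjusted p below 0.05, beside 7.93% and 24.7% of all tested genes. Between ALA and SFA, both ALA arrays were above both SFA arrays for 21 members, against 31.4%, and below for 2, F10 and F13b, against 24.4%. Here 0 of 37 members were called in the limma fit, beside 1.53% of all tested genes. In that fit 2 members, Cfb and Masp2, had an unadjusted p below 0.05, beside 22.4% of all tested genes. After 75th percentile centring the 21 and 2 became 12 and 7, against 20.2% and 36.5% of all genes. After median centring they were 17 and 4 (26.9% and 29.1% of all genes). After quantile normalization they were 22 and 1 (22.9% and 32.9%), and after cyclic loess 25 and 1 (25.6% and 29.9%).

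Other hepatocyte products are set beside the members here. Of 12 tested genes of secreted hepatocyte proteins outside the group, 8 were lower on both SFA arrays than on both control arrays, against 35.7% of all tested genes, and 1 was called in any comparison, the angiotensinogen gene Agt, which rose by 0.65 on ALA (SE 0.13, adjusted p = 0.0327). Albumin (Alb) was at 12.75 and 12.74 on the control arrays, at 12.69 and 12.68 on ALA and at 12.63 and 12.58 on SFA. Hnf4a, a nuclear receptor gene that many of these genes depend on, lay between 10.48 and 10.85 on all arrays, and Cebpa between 8.76 and 9.46, neither of which passed. Of 13 tested liver transcription factor genes, Cebpb rose by 0.81 on ALA (adjusted p = 0.0324), and Foxa1 fell by 0.94 on ALA and by 0.89 on SFA (adjusted p = 0.0366 and 0.0327). Called genes made up 7.93% of all tested genes on ALA and 13.8% on SFA.

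Acute phase genes, which hepatocytes raise in inflammation, were counted as well. Of 17 tested, 3 rose on ALA, beside 5.11% of all tested genes called higher. They were Lcn2 by 2.76, the serum amyloid P gene Apcs by 1.13 and the interleukin-6 receptor gene Il6ra by 1.01. On SFA 1 of the 17 rose, Apcs by 0.99, which is near the 6.62% of all tested genes called higher. Orm3, an orosomucoid gene, was 2.77 higher on ALA than on SFA (adjusted p = 0.0393). Saa1 was at 3.43 and 5.61 on the control arrays, at 8.95 and 6.63 on ALA and at 2.94 and 4.00 on SFA, and did not pass. Over the same arrays the fibrinogen gene Fgb ranged by 0.24 and Hp, the haptoglobin gene, from 11.39 to 12.09. The mean log2 signal of the acute phase list was 8.78 and 9.65 on the control arrays, 10.53 and 9.77 on ALA and 8.73 and 8.73 on SFA.

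Some of the other complement genes, several of them made by macrophages, rose on each diet. Of 30 other complement genes 20 were tested, and 6 rose on ALA and 0 fell, beside 5.11% and 2.82% of all tested genes. Cfp, the properdin gene, was at 7.50 and 7.47 on the control arrays, at 9.17 and 8.56 on ALA and at 8.48 and 8.36 on SFA, and rose by 1.38 on ALA (SE 0.20, adjusted p = 0.0109). C3ar1, the receptor of C3a, was at 5.41 and 5.26 on the control arrays, at 6.95 and 6.10 on ALA and at 6.78 and 6.64 on SFA, and rose by 1.37 on SFA (SE 0.26, adjusted p = 0.0198). For both genes every array of the other diets was above both control arrays. The C1q chain genes C1qb and C1qc rose by 1.80 and 1.67 on ALA, and Vsig4, a complement receptor gene of liver macrophages, by 1.65. On SFA 6 of the 20 rose, beside 6.62% of all tested genes, and C1qb, C1qc and Vsig4 rose by 1.42, 1.45 and 1.52. The 1 that fell was C1ra, the gene of a classical pathway protease that hepatocytes make, by 0.82 (SE 0.14, adjusted p = 0.0142), named after its value was seen. Of 11 macrophage markers, which include Vsig4 and the C1q genes, 11 rose on ALA and 8 on SFA, with a mean log2 signal of 7.38 and 7.24 on the control arrays, 8.70 and 8.32 on ALA and 8.32 and 8.27 on SFA. The part of macrophage number in these values was not tested.

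Among 22 tested clotting and fibrinolysis genes outside the group, 4 rose on ALA, and 3 rose and 1 fell on SFA. Of all tested genes 5.11% were called higher on ALA, and 6.62% higher and 7.15% lower on SFA. Tfpi, the gene of the tissue factor pathway inhibitor, was at 5.84 and 5.40 on the control arrays, at 6.68 and 6.63 on ALA and at 6.65 and 6.39 on SFA, a rise of 1.04 and 0.90 (adjusted p = 0.0203 and 0.0228). Vwf, the von Willebrand factor gene, rose by 0.81 and 0.96 (adjusted p = 0.0232 and 0.0104), and the thrombomodulin gene Thbd by 0.75 and 0.98 (adjusted p = 0.0427 and 0.0152). F8, which endothelium makes, rose by 0.66 on ALA (adjusted p = 0.0468). The alpha-macroglobulin family gene Mug1, a hepatocyte product, fell by 0.84 on SFA (adjusted p = 0.0399). Endothelial markers had a mean log2 signal of 7.48 and 6.999 on the control arrays, 8.30 and 8.21 on ALA and 7.99 and 7.90 on SFA, with 6 of 11 called as higher on each diet, and Vwf and F8 are 2 of the 11. The part of endothelial cell number in these values was not tested.

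Of the remaining cell type markers, 7 of 10 stellate cell genes, 3 of 5 megakaryocyte genes, 2 of 4 erythroid genes and 1 of 3 bile duct genes rose on ALA, as 9, 3, 2 and 0 did on SFA. The share of all tested genes called higher was 5.11% on ALA and 6.62% on SFA. Neutrophil markers gave 0 of 5 on ALA and 2 of 5 on SFA, and lymphocyte markers 0 of 3 on both. The hepatocyte marker list had 0 of 6 called in every comparison. Fetal liver genes rose in 5 of 9 cases on ALA and 7 of 9 on SFA, and cell cycle genes in 8 and 12 of 15 cases. The fetal serum protein gene Afp, one of the 9, read 4.52 and 4.81 in log2 signal on the control arrays, 4.94 and 5.60 on ALA and 6.26 and 6.44 on SFA. The part of developmental stage in the values of the members was not tested.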

How the data were processed

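Per the labels' protocols, biotin-labelled total RNA of pooled livers was hybridised to Affymetrix arrays. The deposited values were made with RMA and Partek 6.6, per the submitters' processing notes, and are on the log2 scale as judged from their range of 1.983 to 13.12, as no log base is stated. Background, summary and annotation settings are not given in the sources used here.

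Of 35556 probes, 21789 had 1 gene symbol in the platform annotation, 1621 had several and 12146 had none. Of the 21789, 21698 were found by Entrez identifier in RefSeq annotation of GRCm38.p6, and 0 symbols changed. The brightest probe by mean over the 6 arrays represented a gene, which left 19938 genes. The 10977 with a mean log2 signal of at least 5 were tested.

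Tests used limma 3.58.1 in R 4.3.3: a mean per diet over all 6 arrays, with 3 residual degrees of freedom, default empirical Bayes, two-sided p-values adjusted by Benjamini-Hochberg over 10977 genes, and a threshold of 0.05. SE and 95% intervals come from this fit, and the small number of arrays limits their precision. Groups of genes were described by counts and medians without a test. The fit was tested on simulated data with known changes.

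The members, lists, motifs and tests were chosen with earlier results of these data known. Full array values were given for members that passed, for the 5 others with the largest change in each comparison, and for the other chains of C8 and mannose-binding lectin, and further members were named after their values were seen. From the lists of other complement and clotting genes, hepatocyte products, acute phase genes and transcription factors, those called were named, at most 4 a comparison. Fetal liver, cell cycle and cell type marker lists were given as counts or mean signals. Alternatives were the signal minimum, the normalization, the probe rule, the moderation, the arrays in the fit, the replicate number as a block and leaving out each array.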

Additional observations from a re-analysis of the deposited data

How the results depend on the processing

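The count of members called was 0 between ALA and Control under every alternative that kept both arrays of each diet compared. Leaving out an array leaves 1 in its group, so no count of members is drawn from those fits. Between SFA and Control the count was 1 in the fit to all 6 arrays. It was 0 with no signal minimum, after 75th percentile centring and with the 4 arrays of the comparison alone. With the replicate number as a block it was also 0 (C4bp adjusted p = 0.0592). It was 2 (C4bp and F5) with a signal minimum of 6, beside 1394 of 7855 genes called. After cyclic loess it was 2 (C4bp and F5), beside 1537 of 10977. With trend and robust moderation it was 3 (C4bp, F5 and Masp2), beside 1742 of 10977. Between ALA and SFA it was 0 except under trend and robust moderation, with 1 (Masp2). The difference between complement and coagulation changed most with the control arrays: without an array it ranged from -0.599 to 0.126 between ALA and Control and from -0.708 to 0.0168 between SFA and Control. The cause of these changes was not tested. The median change of the members ranged over the alternatives from -0.0861 to 0.0895 between ALA and Control, from -0.232 to -0.0616 between SFA and Control and from 0.0208 to 0.234 between ALA and SFA.

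Arrays with the same replicate number did not deviate together (r = -0.03 for Control and ALA, -0.004 for Control and SFA and 0.02 for ALA and SFA over 10977 genes), so the numbers are taken as names and not as a pairing. Under the block 0 members were called in any comparison. Over all genes, calls between ALA and SFA were 168 and ranged from 0 with the block, without either SFA array or without ALA replicate 1 to 421 with trend and robust moderation. Calls between ALA and Control were 871, 448 with the 4 arrays alone and 267 to 475 without 1 array. Calls between SFA and Control were 1512, and 245 to 1428 without 1 array. With 2 pools per diet, sex-linked signal that differs between the diets, and 1 probe per gene, precision is limited by the number of arrays.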
